A study of Mus musculus with 8 samples.

Results

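Among 45402 distinct autosomal regions of accessible chromatin, 1130 (2.49%) were open at a similar level in 3 groups of regulatory T cells (Tregs) and less open in conventional CD4 T cells of visceral adipose tissue (VAT). The members were chosen by their measured values. A region was a member when all 6 Treg libraries lay above both VAT CD4 libraries, each Treg group mean was at least 1.5 times the VAT CD4 mean, the largest Treg group mean was at most 1.5 times the smallest, and the mean of the 3 Treg groups was at least 2 CPM. CPM is the count of a region per 1000000 autosomal counts of its library. The rule used every library and every contrast between groups, so the levels of the members and their differences are given as a description. Counts of members that passed a test in the fit of all 8 libraries are printed beside the share of all regions. Counts under other settings are printed without that share, and nothing is read from either.

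The cells came from C57BL/6 mice with a red fluorescent protein (RFP) reporter in the Foxp3 gene, and they were profiled by ATAC-seq, in which a transposase inserts adapters into open DNA. Tregs were the RFP+ cells of male spleen, male VAT and female VAT, and the comparator was RFP- CD4 T cells of male VAT. Each of the 4 groups has 2 libraries, and each library pooled 3 mice per the labels. No age is used here, and nothing states that the 2 libraries of a group are independent beyond those pools, so the spread may be partly technical. The design text speaks of female spleen too, while the labels give the spleen libraries as male. No CD4 group from spleen or from females was measured, so for spleen Tregs and for female Tregs the cell type cannot be told apart from the tissue or the sex, and a member is a region higher than in 1 comparator group.

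Tregs restrain other immune cells and depend on the transcription factor Foxp3. They carry high amounts of the inhibitory receptor Ctla4 and of receptors for interleukin 2, and Tregs of adipose tissue take on further features of that tissue under the control of tissue signals. Promoters of widely expressed genes are open in most cells, while regions away from promoters differ more between cell types.

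Member regions overlapped the promoters of several receptor genes. The bases just upstream of their starts are shown for 5 of these (Ctla4, Il1r2, Ccr8, Cd80 and Il21r) and for Ankrd6, a gene with 4 member regions, so that the DNA at these regions can be read beside its values. Il21r was picked after its values were seen. Each line holds the 250 bases before the annotated start, 5′ to 3′ on the strand of the gene, from RefSeq (GRCm38.p6). Capitals mark matches to the short motifs listed further on.
Ctla4: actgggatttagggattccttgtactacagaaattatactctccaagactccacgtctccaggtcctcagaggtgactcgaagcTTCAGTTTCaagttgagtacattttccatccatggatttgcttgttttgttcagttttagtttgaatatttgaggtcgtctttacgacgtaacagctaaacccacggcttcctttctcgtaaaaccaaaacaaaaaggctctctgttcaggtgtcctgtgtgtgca
Il1r2: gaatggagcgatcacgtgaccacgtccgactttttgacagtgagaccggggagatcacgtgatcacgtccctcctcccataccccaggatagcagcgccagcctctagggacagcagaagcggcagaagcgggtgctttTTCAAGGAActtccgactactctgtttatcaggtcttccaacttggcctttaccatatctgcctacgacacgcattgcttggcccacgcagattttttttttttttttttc
Ccr8: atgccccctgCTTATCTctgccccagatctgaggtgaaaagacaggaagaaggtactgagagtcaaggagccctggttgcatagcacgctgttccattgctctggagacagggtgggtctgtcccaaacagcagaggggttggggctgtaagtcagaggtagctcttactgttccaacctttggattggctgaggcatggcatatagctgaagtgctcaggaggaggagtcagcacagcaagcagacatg
Cd80: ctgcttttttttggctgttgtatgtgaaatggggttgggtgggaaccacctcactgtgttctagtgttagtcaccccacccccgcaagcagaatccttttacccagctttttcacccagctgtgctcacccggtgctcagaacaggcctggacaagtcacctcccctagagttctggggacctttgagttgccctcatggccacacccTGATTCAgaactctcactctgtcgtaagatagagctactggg
Il21r: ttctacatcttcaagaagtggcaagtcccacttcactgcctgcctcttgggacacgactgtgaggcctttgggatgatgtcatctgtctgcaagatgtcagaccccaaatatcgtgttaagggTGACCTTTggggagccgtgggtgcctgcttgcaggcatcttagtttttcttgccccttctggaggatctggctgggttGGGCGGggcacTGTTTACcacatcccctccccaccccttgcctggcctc
Ankrd6: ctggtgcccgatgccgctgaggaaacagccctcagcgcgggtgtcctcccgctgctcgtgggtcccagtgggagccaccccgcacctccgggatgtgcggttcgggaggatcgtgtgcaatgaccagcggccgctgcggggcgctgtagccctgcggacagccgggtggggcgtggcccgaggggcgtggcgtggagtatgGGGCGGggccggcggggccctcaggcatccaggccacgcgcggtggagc

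These windows lie at chr1:60908775-60909024 (plus strand) for Ctla4, chr1:40085843-40086092 (plus) for Il1r2, chr9:120091883-120092132 (plus) for Ccr8 and chr16:38458683-38458932 (plus) for Cd80. The Il21r window is chr7:125603179-125603428 (plus) and that of Ankrd6 is chr4:32950827-32951076 (minus). The match in Ctla4 is to the IRF motif, 166 bases before the start, and that in Il1r2 to the STAT motif, 111 bases before it. Ccr8 holds a GATA match at 240 bases and Cd80 an AP-1 match at 42 bases before the start. Il21r holds an NR4A match at 127 bases, a KLF/SP match at 49 bases and a forkhead match at 38 bases, and Ankrd6 holds 1 KLF/SP match at 49 bases. A match of letters is a description and does not show that a factor binds there.

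Autosomal counts ran from 5669084 to 15630184 per library, and the VAT CD4 libraries had the fewest, 5669084 and 7155017. Members took 0.988 to 1.14% of the counts in the 6 Treg libraries and 0.469 and 0.596% in the VAT CD4 libraries. Foxp3 lies on the X chromosome and so outside the rule. Its region chrX:7582208-7585993 was at 13.8 and 14.5 CPM in Tregs of male spleen, at 19.8 and 14.2 in those of male VAT, at 27.7 and 34.0 in those of female VAT and at 1.41 and 2.10 in the comparator. All Treg libraries were above the comparator there, and the female libraries were the highest. This is 1 of 6 regions assigned to Foxp3. At the one with the most signal, chrX:7572009-7576644, the comparator (29.6 and 35.1 CPM) lay among the Treg libraries (25.1 to 58.5 CPM). Foxp3 values are per autosomal counts and make no allowance for X copy number. Between the sexes, copy number and openness can therefore not be told apart at Foxp3. Summed CPM at regions of 7 T cell marker genes overlapped between Tregs (272 to 376) and VAT CD4 cells (307 and 396). Members were 2 of the 35 regions of those genes and 3 of the 49 regions of 5 Treg marker genes. Marker lists of other cells (B, myeloid, CD8 and NK, adipocyte, stromal or endothelial) included 0 members each, of 9, 13, 10, 11 and 26 regions. Over all autosomal regions 2.49% were members, so nothing is read from the counts on lists this small. Summed CPM of Treg and VAT CD4 libraries overlapped on these lists: VAT CD4 cells were at 90.7 and 95.7 CPM on the adipocyte list, where Tregs ran from 78.0 to 112, and at 159 and 207 on the myeloid list, where Tregs ran from 166 to 234. No region was assigned to Ms4a1 and Blnk (B cells), Csf1r, Adgre1 and Lyz2 (myeloid), Cd8a and Ncr1, Lep and Lpl (adipocytes), or Dcn (stroma). Fewer cells of a type that carries an open region and less signal per cell cannot be told apart in bulk libraries.

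The 1130 members included more short regions than the table as a whole, and their levels were lower with that. Of them 638 (56.5%) were under 1000 bp, against 36.2% of all autosomal regions, and their median width was 248 bp, against 2619 bp. The median Treg mean was 4.99 CPM, against 9.94 CPM over all autosomal regions, and the median VAT CD4 mean was 2.22 CPM. The median ratio of the Treg mean to the VAT CD4 mean was 2.05, with quartiles at 1.79 and 2.62, against 1.10 over all autosomal regions. Short members (under 1000 bp) had a median Treg mean of 3.08 CPM and a median ratio of 2.42, against 2.12 CPM and 1.27 over all short regions, or 3.01 CPM and 1.28 over those at the minimum level. The 492 long members had 14.4 CPM and 1.84, against 16.7 CPM and 1.07 over all long regions. Large ratios belonged mostly to short regions with few counts: 192 members had a ratio of 3 or more, 7 of them long, and 50 had 5 or more, 1 of them long. The comparator had 10 counts or fewer over its 2 libraries in 120 members, 1 to 3 counts in 9 and 0 counts in none.

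**Figure D1:**
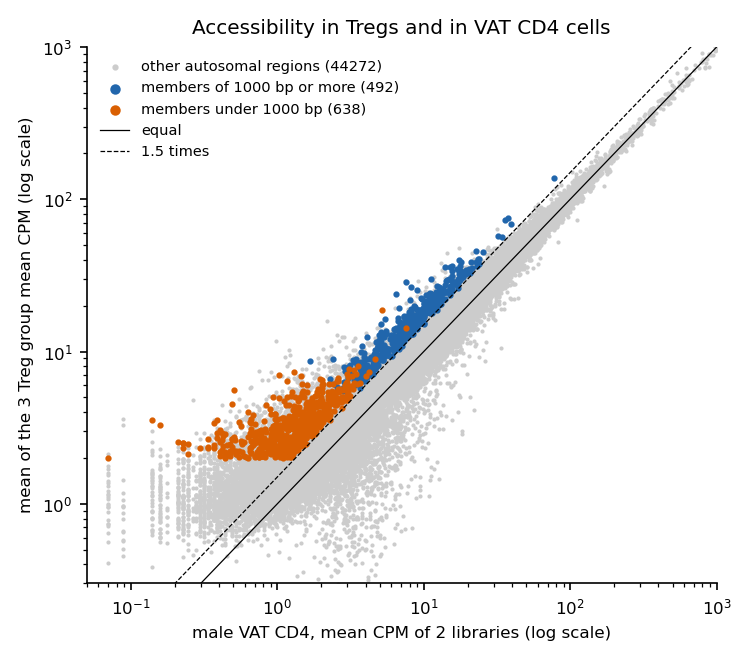
Mean CPM of each autosomal region in male VAT CD4 cells (x axis, log scale) against the mean of the 3 Treg group means (y axis, log scale), with members under 1000 bp in orange and longer members in blue. Members lie above the dashed line of 1.5 times by the rule, and the short ones sit at the lower levels. Regions outside the axes are not drawn.

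The conditions of the rule kept very different numbers. All Treg libraries were above both VAT CD4 libraries in 5426 regions, and each Treg group mean was at least 1.5 times the comparator in 3361. Both held in 2489 regions, 1925 of these had a Treg mean of at least 2 CPM, and 795 of the 1925 then failed because the Treg groups differed by more than 1.5 times. Another 2494 regions missed only the fold over VAT CD4, 191 missed only the order of the libraries and 177 only the minimum level. Just inside the fold stood a region at Anxa13 with a smallest Treg group ratio of 1.50041, and just outside a region at Ptprk with 1.49999. For evenness, a region at Rbms3 at 1.49897 was in and one at Ndfip2 at 1.50045 was out. For level, a region at Hpd with 2.00222 CPM was in and one at Lmnb1 with 1.99998 CPM was out.

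The scale of the libraries mattered for membership. In the VAT CD4 libraries the TMM factors, which rescale library totals, were 0.907 and 0.959, and in Treg libraries 1.01 to 1.06. Over all regions the median log2 ratio of Tregs to VAT CD4 was 0.14 on CPM and 0.01 after TMM scaling, and in members it was 1.04 and 0.91. With TMM-scaled CPM the rule found 741 regions, of which 735 were among the 1130. The order of the 2 comparator libraries also mattered: the median member had 2.12 CPM in VAT CD4 replicate 1 and 2.52 CPM in replicate 2. Without VAT CD4 replicate 2 the rule found 2666 regions, which held 1040 of the members, and without replicate 1 it found 1174, which held 790.

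All 1130 members passed the low-count filter of the fit across regions. In that fit (edgeR's quasi-likelihood test, Benjamini-Hochberg adjusted p under 0.05), 561 members (49.6%) were called higher in the mean of the 3 Treg groups than in male VAT CD4 cells, against 3.09% of all autosomal regions tested. The shares called higher than VAT CD4 were 39.6% of members (448) against 5.19% of all regions for male VAT Tregs, 26.6% (301) against 1.89% for female VAT Tregs, and 31.0% (350) against 1.9% for male spleen Tregs. These 4 comparisons share the same 2 comparator libraries and the rule used them, so nothing is read from the counts. Long members were called in 345 of 492 (70.1%), against 2.06% of all long regions tested, and short ones in 216 of 638 (33.9%), against 5.00% of all short regions. With either VAT CD4 library left out fewer members were called. The share of all regions called without that library is not given here, so whether other regions changed alike cannot be told.

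Between the Treg groups the members were close to even, which the rule required. The median log2 ratio of male over female VAT Tregs was 0.02, that of male VAT over male spleen Tregs -0.01 and that of female VAT over male spleen Tregs -0.02. The highest group was male spleen in 405 members, male VAT in 400 and female VAT in 325. The median of the largest over the smallest Treg group mean was 1.23. By edgeR's test 0 members were called between male and female VAT Tregs, with 29 of 1130 at an unadjusted p under 0.05, against 2.82% of all regions called either way and 5629 of 44691 at that unadjusted p. DESeq2 and limma-voom called 0 members too. Between male VAT and male spleen Tregs 2 members were called, both higher in VAT, against 6.79% of all regions. The limit on the spread of the Treg group means sets these low counts, and they say nothing further about the members.

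Members overlapped promoters less often than all regions did, mostly among the long regions, and the differences were not tested. A RefSeq promoter window (250 bases before to 50 after a start) was overlapped by 95 of the 1096 members on chromosomes with promoter entries (8.67%), against 21.3% of all such regions. The share was 13.2% of long members, against 30.0% of all long regions, and 5.27% of short members, against 5.94% of all short regions. The median distance to the nearest gene start of those windows was 17498 bp for members and 20477.5 bp for all regions. Short members were nearer than all short regions (14164.5 against 18792.5 bp). Long members were farther than all long regions (23298 against 22196.5 bp). A gene body was overlapped by 68.2% of members and 68.8% of all regions, and exons and introns are not told apart here. By chromosome, members made up 1.45% (chromosome 8) to 3.84% (chromosome 15) of the regions. Of the 75 members on chromosome 15, 21 were assigned to the single gene Ctnnd2.

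**Figure D2:**
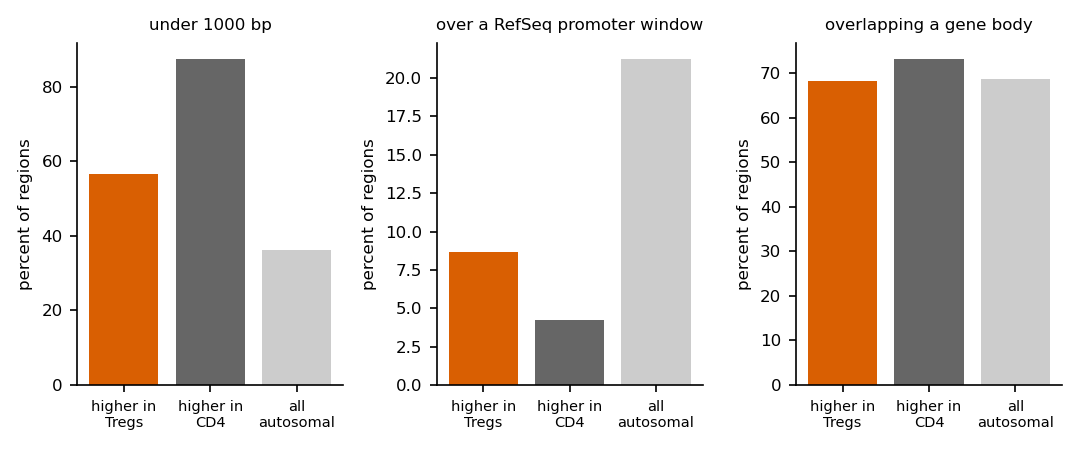
Percent of regions that were under 1000 bp, overlapped a RefSeq promoter window, or overlapped a gene body (3 panels, y axes in percent from 0), for the 1130 members (orange), the 318 regions that met the same rule turned towards VAT CD4 cells (dark grey) and all autosomal regions (light grey). Promoter overlap was 8.67% in members, 4.23% in the turned set and 21.3% overall.

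The same rule turned round, with VAT CD4 cells above all Tregs, found 318 regions. These were shorter still, with 278 (87.4%) under 1000 bp and a median width of 153.5 bp. A promoter window was overlapped by 4.23% of them. The median distance to the nearest gene start was 22368.5 bp, beside 17498 bp for members. No test of these differences was made. Like membership, the turned rule used CPM, on which the median ratio of Tregs to VAT CD4 over all regions was 1.10. The turned rule was not run on TMM-scaled CPM, so its 318 regions are not read against the 1130 members.

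Motif letters were counted in the 250 bases before the start of the 111 promoters that members overlapped, on both strands, beside all 31396 RefSeq promoters and the 12960 that any region overlapped. The NF-kB letters GGNNTTTCC were in 11.7% of member promoters, 4.97% of all promoters and 5.06% of those in any region. The STAT letters TTCNNNGAA were in 11.7%, 7.06% and 5.77%, the AP-1 letters TGANTCA in 9.01%, 6.77% and 4.22%, and the IRF letters GAAANNGAA in 9.01%, 7.14% and 6.10%. The ETS letters CCGGAAG were in 9.01%, 7.01% and 13.9%, and the KLF/SP letters GGGCGG in 36.9%, 33.0% and 56.8%. The forkhead letters TGTTTAC, which Foxp3 and its relatives can bind, were in 2.70%, 3.21% and 2.35%. The RUNX letters TGTGGTT were in 3.604%, 4.42% and 3.33%. The CRE letters TGACGTCA were in 0.901%, 1.58% and 2.77%, and the NR4A letters AAAGGTCA in 0.901%, 1.33% and 0.841%. The GATA letters AGATAAG were found in 1 member promoter, that of Ccr8, in 2.72% of all promoters and in 1.63% of those in any region. The TCF/LEF letters CTTTGAT were likewise in 1 member promoter, and in 3.23% and 2.27%. Some letters overlap, as IRF and STAT can. Member promoters had a median GC content of 55.6% and 9 CpG pairs, against 60% and 16 in promoters within any region and 52.4% and 6 in all promoters.

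Members were assigned by the deposited table to 1244 genes, of which 1106 had 1 member region, 118 had 2 and 20 had 3 or more. Regions of 11 gene lists held up to 8.33% members, against 2.49% overall. The highest share was on the list of Treg core genes, where 12 of 144 regions were members and 9 of 19 genes with a region had at least 1. Next came TNF receptors and costimulation (9 of 124 regions, 7.26%), the NF-kB pathway (7 of 116, 6.03%), cytokine receptors and JAK-STAT (8 of 157, 5.10%), suppressive effectors (4 of 82, 4.88%), and homing, chemokine and adhesion receptors (5 of 109, 4.59%). VAT Treg genes had 5 of 113 (4.42%), T cell receptor signalling 7 of 179 (3.91%), Treg transcription factors and partners 7 of 237 (2.95%), effector and conventional T cell genes 2 of 69 (2.90%), and AP-1 and IRF factors 1 of 80. Regions called higher and lower in the mean of the Treg groups numbered 5 and 4 on the NF-kB list and 8 and 12 on the homing list. They numbered 14 and 13 on the Treg transcription factor list and 4 and 3 on the suppressive list. On the VAT Treg list they numbered 11 and 3, and on the AP-1 and IRF list 3 and 2. Of all autosomal regions tested, 3.09% were called higher and 2.67% lower, and nothing is read from the list counts. The lists share genes and some regions, and were chosen with earlier results of these data known.

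**Figure D3:**
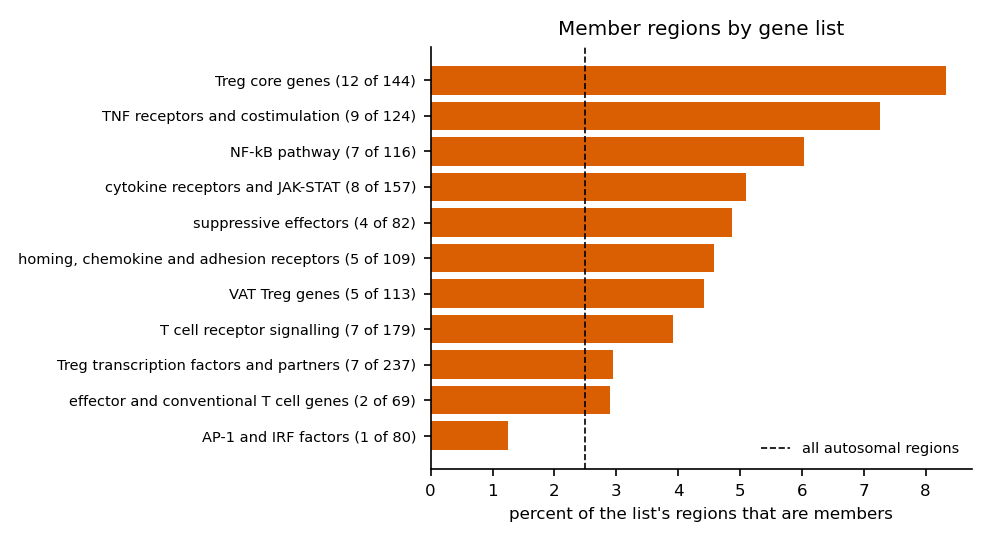
Percent of the regions of each gene list that were members (bars, x axis from 0), with the number of members and of regions beside the name. The dashed line marks the 2.49% of all autosomal regions, and 10 of the 11 lists lie above it.

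Treg core genes had a median ratio of 1.36 over all their 144 regions, against 1.10 over all regions. In the fit 17 of these regions were called higher in Tregs and 1 lower, against 3.09% and 2.67% of all autosomal regions tested. With TMM-scaled CPM 7 of the 144 regions met the rule. These include a Tigit region, chr16:43655333-43655530, that is not among the 12. Ctla4, the inhibitory receptor that competes for costimulatory ligands, had 2 member regions of 13. The first, chr1:60908788-60917934, spans the promoter and the gene body. It had 62.9 and 65.5 CPM in Tregs of male spleen, 75.2 and 59.2 in male VAT, 68.3 and 80.3 in female VAT, and 35.1 and 43.9 in VAT CD4 cells, a ratio of 1.74. The male VAT libraries overlapped those of spleen and of female VAT, and the region was no member after TMM scaling. The second, chr1:60937028-60937317, lies 21.2 kb outside the gene. It had 5.91 and 6.08 CPM in spleen, 7.05 and 3.47 in male VAT, 4.69 and 7.04 in female VAT, and 0.706 and 3.07 in VAT CD4 cells, a ratio of 3.02. The nearest Treg library, at 3.47 CPM, was not far above the higher VAT CD4 library at 3.07 CPM.

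Ikzf4, which encodes the Foxp3 partner Eos, had 2 member regions of 5, both inside the gene and both also assigned to its neighbour Rps26. The short one, chr10:128642886-128643008, had 4.31 and 3.90 CPM in spleen, 2.33 and 3.37 in male VAT, 3.16 and 2.79 in female VAT, and 0.176 and 0.14 in VAT CD4 cells. The comparator values are 2 counts in all, and the ratio of summed counts was 20.97 with an exact 95% interval of 5.74 to 174 that covers counting error only. The long one, chr10:128635569-128638844, had 14.7 and 15.4, 22.7 and 16.8, and 19.1 and 20.2 CPM in the same Treg groups, and 6.17 and 12.7 CPM in VAT CD4 cells, a ratio of 1.92. After TMM scaling the short region was still a member and the long one was not.

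Lrrc32 encodes GARP, which holds latent TGF-beta on the Treg surface, and Itgb8 the integrin chain that helps release it. The Lrrc32 member chr7:98487747-98493144 had 25.01 and 25.2 CPM in spleen, 28.3 and 21.6 in male VAT, 33.5 and 31.8 in female VAT, and 15.9 and 16.8 in VAT CD4 cells. The Itgb8 member chr12:119203670-119207679 had 17.2 and 19.6, 25.7 and 21.8, and 20.6 and 23.2 CPM in those Treg groups and 7.76 and 12.6 CPM in the comparator. Both lie inside their genes, with ratios of 1.69 and 2.10, and the Itgb8 region alone of the pair stayed a member after TMM scaling. Tigit, an inhibitory receptor, had 2 short member regions, one inside the gene with a ratio of 2.09 and one 29.1 kb away with 2.15. Nt5e (CD73, which makes adenosine), Il2rb (a chain of the interleukin 2 receptor), Nrp1 and Izumo1r (the folate receptor 4 of Tregs, listed under an older symbol) each had 1 short member region, with ratios of 3.42, 2.49, 1.87 and 1.79. The Nt5e, Nrp1 and Izumo1r regions lie 18.2, 301 and 17.4 kb outside their genes, and the Il2rb region is also assigned to Tmprss6. After TMM scaling the Nt5e region and the 2 Tigit regions stayed members, and those of Il2rb, Nrp1 and Izumo1r did not.

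Several genes that define Tregs had no member region. Il2ra, the high-affinity chain of the interleukin 2 receptor, had 0 of 9, Ikzf2 (Helios) 0 of 19, Icos 0 of 17, Entpd1 (CD39) 0 of 7, and Tnfrsf18 (GITR) and Tnfrsf4 (OX40) 0 of 6 each. The reasons differed by region. The Il2ra region with the highest Treg level, chr2:11650053-11657050, had 29.4 and 29.6 CPM in spleen, 46.8 and 32.1 in male VAT, 32.4 and 31.2 in female VAT, and 27.0 and 39.3 in VAT CD4 cells. The comparator lay among the Treg libraries there. A short Il2ra region, chr2:11645371-11645539, had a ratio of 2.80 and missed on evenness, with the largest Treg group mean at 1.62 times the smallest. The Ikzf2 region with the highest Treg level, chr1:69677840-69688653, was alike, with Treg libraries from 41.8 to 53.9 CPM and VAT CD4 libraries at 43.9 and 53.7 CPM. By contrast a short Ikzf2 region, chr1:69599481-69599672, was 7.09 times the comparator but uneven, at 1.97 and 2.11 CPM in spleen, 5.72 and 3.26 in male VAT and 4.69 and 4.61 in female VAT. The region chr4:156007191-156009932 shared by Tnfrsf18 and Tnfrsf4 had a ratio of 2.11 and missed on evenness, with the largest Treg group mean at 1.53 times the smallest. It also missed on the order of the libraries, with 8.50 CPM in male spleen Treg replicate 1 and 8.81 CPM in VAT CD4 replicate 2. Gpr83, another Treg receptor gene, had 0 of 2.

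**Figure D4:**
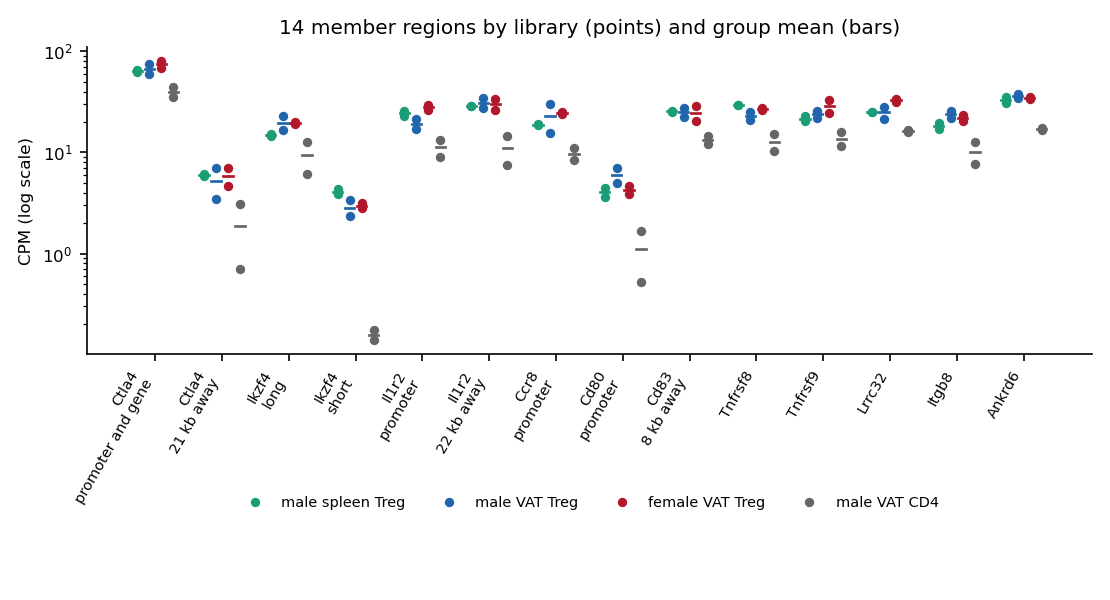
CPM of 14 member regions by library (points, y axis on a log scale) with the mean of each group (short bars), coloured by group. In each region all 6 Treg libraries lie above both VAT CD4 libraries, as the rule requires, and the 2 comparator points lie far apart at the second Ctla4 region (0.706 and 3.07 CPM).

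Among TNF receptors and costimulatory molecules, member regions were found at Cd80, Cd83, Cd86, Tnfrsf8 and Tnfrsf9. Over all 124 regions of that list 18 were called higher in Tregs and 5 lower, against 3.09% and 2.67% of all autosomal regions tested. Cd80 encodes a ligand of Ctla4 and Cd28. Its promoter region chr16:38458752-38458997 had 4.43 and 3.65 CPM in spleen, 6.98 and 4.99 in male VAT, 3.87 and 4.61 in female VAT, and 0.529 and 1.68 in VAT CD4 cells, a ratio of 4.31. Cd86, another ligand of the same receptors, had 2 member regions. The first, chr16:36631291-36633546, had a ratio of 2.39, with Tregs at 7.85 to 10.7 CPM and the comparator at 4.41 and 3.35 CPM, and the other a ratio of 1.80.

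Cd83, a surface molecule of activated lymphocytes and dendritic cells, had 4 member regions of 9. The region chr13:43773190-43777377, 7.74 kb from the gene, had 25.4 and 25.8 CPM in spleen, 27.8 and 22.3 in male VAT, 20.6 and 28.8 in female VAT, and 12.2 and 14.4 in VAT CD4 cells. Its ratio was 1.89, and those of the other Cd83 members were 1.97, 2.38 and 1.92. Tnfrsf8 (CD30) had chr4:145282547-145287908 with 29.3 and 29.3, 25.2 and 20.8, and 26.5 and 27.4 CPM in the spleen, male VAT and female VAT Tregs, and 10.2 and 15.1 CPM in the comparator. The Tnfrsf9 (4-1BB) member chr4:150936680-150941591 had a ratio of 1.80 and was no member after TMM scaling. Another Tnfrsf9 region, chr4:150923196-150929255, had nearly the same ratio, 1.82, and was not a member. Its Treg groups ran from 20.9 and 26.6 CPM in spleen to 69.0 and 45.4 CPM in male VAT, so it missed on evenness. VAT CD4 cells had 17.5 and 26.7 CPM, which overlapped spleen Tregs. The smallest Treg group ratio was 1.08, so the region missed on the fold and the order of the libraries too.

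Il1r2, the decoy receptor that takes up interleukin 1 without signalling, had 3 member regions of its 4. The region chr1:40055845-40062744, 21.9 kb from the gene, had 28.7 and 29.1 CPM in spleen, 34.2 and 27.3 in male VAT, 26.3 and 33.4 in female VAT, and 7.58 and 14.7 in VAT CD4 cells, a ratio of 2.68. The promoter region chr1:40083448-40088453 had 25.7 and 23.2, 21.3 and 17.0, and 29.3 and 26.5 CPM in those Treg groups and 9.00 and 13.4 CPM in the comparator, a ratio of 2.13. Both were members after TMM scaling. The other member, chr1:40054007-40054124, is short and had a ratio of 2.27 with 13 counts in the comparator.

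Other cytokine receptor members were at Il7r (ratio 3.39), the kinase gene Jak1 (2.83), Il21r (1.72) and Ifngr1 (1.79). The Il21r promoter region had 7.02 and 6.08 CPM in spleen, 8.98 and 4.99 in male VAT, 7.34 and 7.29 in female VAT, and 3.35 and 4.75 in VAT CD4 cells. On the cytokine receptor list as a whole 10 of 157 regions were called higher in Tregs and 15 lower. The shares of all autosomal regions tested were 3.09% and 2.67%.

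Among the homing receptors Ccr8, a chemokine receptor abundant on tissue Tregs, had a member over its promoter and gene, chr9:120089996-120093791. It had 18.97 and 18.5 CPM in spleen, 29.9 and 15.6 in male VAT, 23.7 and 25.4 in female VAT, and 8.47 and 11.04 in VAT CD4 cells, a ratio of 2.26. The male VAT Treg libraries spanned the range of the other Treg groups. Ccr6 had chr17:8208959-8211818, 24.2 kb away, with Treg libraries at 10.3 to 14.8 CPM and the comparator at 5.12 and 5.87 CPM, a ratio of 2.38. Cxcr4 and Cxcr5 had a short member region each, 121 and 11.6 kb away, with ratios of 2.88 and 2.59, and Ccr1 a long one with 1.79.

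Of the transcription factor genes, Myb, whose product supports effector Tregs, had a member region 16.0 kb away, chr10:21176981-21180142. It had 10.6 and 16.2 CPM in spleen, 15.8 and 17.8 in male VAT, 14.1 and 13.2 in female VAT, and 4.76 and 9.08 in VAT CD4 cells, a ratio of 2.11. Gata3, a factor of Th2 cells and of tissue Tregs, had a member region 277 kb away with a ratio of 1.83. Prdm1 (Blimp-1) had 2 short members, with ratios of 4.99 and 2.30, and the first had 6 counts in the comparator. Foxo1 had a short member 149 kb away with a ratio of 2.54. Ets1 had a short member 323 kb away with a ratio of 2.40 and a long one with 1.95. On the NF-kB list short members at Nfkbiz (53.9 kb away), Nfkb1 and Malt1 (33.5 kb away) had ratios of 2.84, 2.38 and 1.92. Nfkb1 also had a long one with 2.06, and Rel had 2 short members with 1.84 and 1.88.

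Suppressive effectors had members at Il10 (a short region 19.99 kb away, ratio 2.56), Areg (a long region 11.4 kb away, ratio 1.75), Itgb8 and Lag3 (a short region, ratio 2.04, also assigned to Cd4). Areg encodes amphiregulin, a growth factor of tissue repair. Its region chr5:91122438-91128199 had 26.0 and 28.4 CPM in spleen, 37.6 and 31.9 in male VAT, 28.9 and 26.6 in female VAT, and 15.5 and 18.7 in VAT CD4 cells. The Areg region was no member after TMM scaling. Maf was the only AP-1 or IRF list gene with a member, a long region 82.7 kb away with a ratio of 1.67, which was no member after TMM scaling. On the T cell receptor list, members at Lcp2 (19.8 kb away), Zap70 (17.2 kb away) and Themis had ratios of 2.77, 2.68 and 2.23. The Zap70 region was no member after TMM scaling. Of the 179 regions of that list 6 were called higher in Tregs and 16 lower. The effector list had 2 members, both at Stat4, of which the leading one had a ratio of 2.56. Of its 69 regions 1 was called higher and 9 lower. Over all autosomal regions tested 3.09% were called higher and 2.67% lower.

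The largest ratios came from short regions with almost no comparator counts. A region inside Hpd, chr5:123178928-123179031, had 1.48 to 2.45 CPM in the Treg libraries and 1 count in the comparator, with a ratio of summed counts of 25.8 (exact 95% interval 4.56 to 1028). It was no member after TMM scaling. A region inside Suz12, a gene of the Polycomb complex, chr11:80025190-80025424, had 2.17 to 4.59 CPM in Tregs and 2 comparator counts, with a ratio of 23.3 (6.38 to 194). The region chr13:46948042-46948310, 18.1 kb from Kif13a, had 4.38 to 6.65 CPM in Tregs and 7 counts in the comparator, with a ratio of 10.5 (5.05 to 26.3). Regions at Rabgap1l, Rad51b, Klf7 and Cnot4 had 3 comparator counts each and ratios of summed counts of 10.7 to 11.1, with lower limits of 3.59 to 3.75 and upper limits of 52.3 to 54.5. Those at Tjp3, Pard6g, Atg7 and Rras2 had 4 or 5 counts and ratios of 7.23 to 9.09.

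The members with the highest Treg CPM were wide regions with moderate ratios. A region inside Zbtb10, a zinc finger gene, chr3:9247347-9252476, had 72.6 and 78.4 CPM in spleen, 86.4 and 77.3 in male VAT, 68.2 and 69.5 in female VAT, and 31.6 and 43.5 in VAT CD4 cells, a ratio of 2.01. A region inside Neb, which encodes the muscle protein nebulin, chr2:52314710-52323612, had 72.2 and 76.7, 93.2 and 70.8, and 62.9 and 65.4 CPM in those Treg groups and 34.9 and 36.3 CPM in the comparator, a ratio of 2.06. The highest level, 122 to 156 CPM in Tregs and 82.4 and 72.8 CPM in VAT CD4 cells, was at a region of 12237 bp assigned to Mir5127 from a distance of 168 kb. These 3 stayed members after TMM scaling. The ones at Anxa11, Alpk2 and Samsn1, with ratios of 1.79, 1.64 and 1.71, did not.

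Ctnnd2, which encodes delta-catenin and is best known from neurons, had 21 member regions of 69, more than any other gene. The gene spans chr15:30172534-31029344, 857 kb, and 66 of its 69 regions (95.7%) had a CPM ratio above 1, against 68.4% of all autosomal regions, with a median ratio of 1.45. On the TMM scale of the fit 59 of the 68 regions tested had a log2 fold change above 0, against 47.9% of all regions. A stretch of 422 kb, chr15:30475892-30897403, was delimited after the values were seen, from the second to the third last member, so that 1 member before it and 2 after it are fixed by its ends. In it 18 of 30 regions were members, 28 of 30 had all Treg libraries above both VAT CD4 libraries, and the median ratio was 1.64. The 31 regions before it had a median ratio of 1.20 and the 8 after it 1.46.

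Summed over all 69 regions, CPM came to 1580 and 1581 for male spleen, 1386 and 1702 for male VAT and 1588 and 1463 for female VAT Tregs, and to 1072 and 1102 for VAT CD4 cells. Treg groups overlapped and all were above the comparator. The member with the most Treg signal, chr15:30553345-30565400, had 50.5 and 47.0, 39.2 and 53.9, and 41.1 and 40.3 CPM in spleen, male VAT and female VAT Tregs, and 24.2 and 26.6 CPM in VAT CD4 cells, a ratio of 1.79. With TMM-scaled CPM 10 of the 21 members remained by the rule, 9 of them in the stretch, and chr15:30553345-30565400 was not among them. None of the Ctnnd2 members was under 1000 bp.

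**Figure D5:**
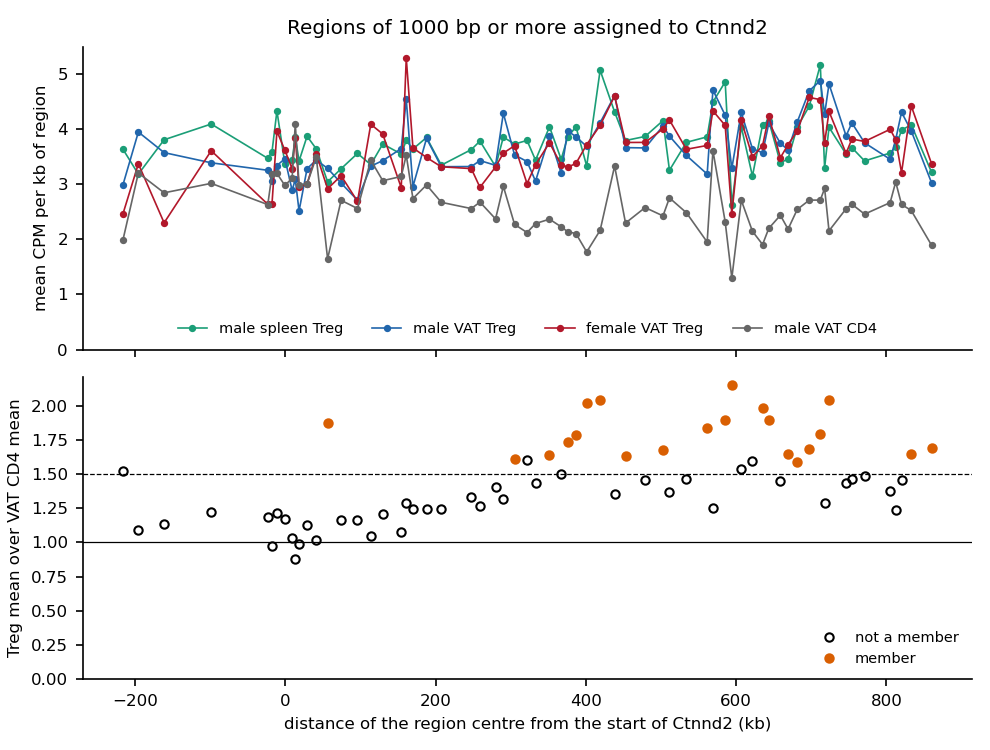
Regions of 1000 bp or more assigned to Ctnnd2 by the distance of their centre from the lower coordinate of the gene (x axis, kb). The upper panel shows the mean CPM per kb of region in each group, and the lower panel the ratio of the Treg mean to the VAT CD4 mean, with members filled and a dashed line at 1.5. The 18 members of the stretch lie between 305 and 724 kb, where the VAT CD4 line runs below the 3 Treg lines.

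Other genes with several members were Zfp385b (5 of 40 regions), Pvt1 (5 of 25), Ankrd6 (4 of 7), Rhoh (4 of 13) and Ctif (3 of 12). All 5 Zfp385b members had ratios of 1.54 to 1.68 and none was a member after TMM scaling. Ankrd6, an ankyrin repeat gene of Wnt signalling, had members over 47.96 kb that include its promoter. Its region chr4:32925921-32932522 had 30.8 and 35.3 CPM in spleen, 37.5 and 34.4 in male VAT, 33.9 and 35.6 in female VAT, and 17.3 and 16.6 in VAT CD4 cells, a ratio of 2.04, and the 3 Treg groups overlapped. The promoter region chr4:32948991-32952710 had 15.6 to 21.6 CPM in Tregs and 10.9 and 9.36 CPM in the comparator, and was no member after TMM scaling. Pvt1, a long non-coding RNA gene beside Myc, had members with ratios of 1.75 to 4.78. The Rhoh members, at a gene for a small GTPase of lymphocytes, had ratios of 1.87 to 3.00. Joined over gaps of at most 50 kb, the members formed 995 groups, of which 892 were single regions and 7 held 4 or more, 2 of these 7 at Ctnnd2.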

How the data were processed

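ATAC-seq libraries of 4 groups, 2 per group, were compared. The authors deposited raw counts per region for all libraries in 1 table, and log2 CPM per library. The submitters' processing notes name GRCm38 (mm10), Subread 1.6.2, HOMER 4.9, featureCounts and limma, without their roles; how regions were called is not given in the sources used here. Coordinates are printed as deposited, and whether starts count from 0 or 1 is not stated.

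The 62205 entries, which repeat a region for each assigned gene, were reduced to 46624 regions, 45402 of them on chromosomes 1 to 19. CPM were counts per 1000000 autosomal counts, and membership used them alone. The quasi-likelihood test of edgeR 4.0.16 (R 4.3.3) was fitted on the 8 libraries together (TMM factors, a mean per group, 4 residual degrees of freedom), adjusted by Benjamini-Hochberg over 45709 regions, of which 44691 were autosomal; calls are at adjusted p below 0.05. The fit was tested on simulated counts. Intervals pool the counts of all Treg libraries and of both comparator libraries, so they cover counting error only and not the spread between libraries. Reads carry no molecular identifiers. Of 19714 gene identifiers 18560 were found in RefSeq (GRCm38.p6).

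The members, the 11 gene lists and the 7 marker lists were chosen with earlier results of these data known. Regions were named by a rule: the 12 largest ratios, the 8 highest Treg means, up to 4 genes per list, the 8 genes with most members, 15 genes always given, and 2 regions on either side of each threshold. Alternatives were other scalings, thresholds, tests (DESeq2 1.42.0, limma-voom 3.58.1) and left-out libraries.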

Additional observations from a re-analysis of the deposited data

How the results depend on the processing

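The number of regions meeting the rule, 1130, fell to 741 with TMM-scaled CPM, 742 with DESeq2 size factors and 697 with the deposited log2 CPM, which lack 34 of the members. It was 562 at a minimum of 5 CPM, 421 at a fold of 2 and 613 at a tighter evenness limit. Leaving out 1 library gave 998 to 2666, and only without male VAT CD4 replicate 2 (2666) was the count beyond 1.5 times the reported one. A minimum of 1 CPM gave 1306, an evenness limit of 2 times gave 1591, and 2 scalings chosen after seeing the data, CPM within each width class and totals without the 44 regions above 1000 CPM, gave 964 and 939.

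Members called higher than VAT CD4 fell with DESeq2's Wald test to 306 for the mean of the Treg groups, 219 for male VAT, 120 for female VAT and 130 for male spleen Tregs, and with limma-voom to 245, 243, 127 and 157. Over the left-out libraries the 4 counts ran from 132 to 657, 165 to 451, 84 to 365 and 95 to 412, and the lowest was without male VAT CD4 replicate 1 each time. Without male VAT CD4 replicate 2 the first was 327. The male VAT count was 185 without male VAT Treg replicate 1. The female VAT count was 124 and 98 without female VAT Treg replicates 1 and 2, and the spleen count 174 and 137 without spleen Treg replicates 1 and 2. Where 1 library of a group is left, it is assumed to vary like the other groups. Between male and female VAT Tregs the count of 0 ranged up to 6 (0 to 6, the highest without male VAT Treg replicate 2). Between male VAT and spleen Tregs the 2 calls were 0 with library size alone, 0 with DESeq2, 4 with limma-voom and 0 to 18 over the left-out libraries, again highest without male VAT Treg replicate 2. The cause of these differences was not tested. The share of all regions called under each of these settings, or with the replicate block, is not given here. Whether members and other regions changed alike can therefore not be told from these counts.

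Replicate numbers did not pair the libraries: correlations of same-numbered deviations ran from -0.14 to 0.07. With the replicate block the counts called were 495, 399, 258 and 303 against VAT CD4, and 0 between male VAT and spleen Tregs. Of 1365 comparisons of named members with 13 alternatives, 1159 kept their side of the threshold, 177 lost it, 29 gained it and 0 reversed. The rule chose the named members as higher in Tregs, so a reversal could hardly arise and nothing is read from the 0. Regions with few comparator counts limit the precision of the large ratios.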
